A study of Mus musculus with 6 samples.

Results

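Noncoding snoRNA host genes are, as a class, genes whose exons form a long noncoding RNA and whose introns hold small nucleolar RNAs (snoRNAs). The genes described here are Gas5, Snhg1, Snhg3, Snhg5, Snhg6, Snhg8, Snhg10, Snhg11, Snhg12 and Snhg20, chosen by name, and they are 10 of the 40413 genes in the deposited table. Snhg11 is typed as protein-coding in GENCODE M21 and as lncRNA in RefSeq, and for Snhg20 no small RNA inside it was analysed here. RNA was sequenced from N2A-A5 cells, called acceptor cells in the labels, a derivative of the mouse neuroblastoma line Neuro-2a (N2A). The 3 libraries labelled 96 h came from cells held for 96 h in differentiation medium with 1% fetal bovine serum and 10 µM retinoic acid, without blasticidin. The 3 libraries labelled 0 h were of undifferentiated cells in 10% fetal bovine serum with 10 µg/mL blasticidin. Within each state the 3 libraries are biological replicates of this line, going by the submitters' design text. Serum, retinoic acid, blasticidin and time changed together, so their parts in any difference cannot be told apart.

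A host transcript is spliced, and the snoRNA is trimmed out of the excised intron and protected by its proteins. Box C/D snoRNAs guide ribose methylation and box H/ACA snoRNAs guide pseudouridylation, mostly of ribosomal RNA, whereas scaRNAs guide the same changes on spliceosomal RNAs in Cajal bodies. The spliced exons of many of these hosts carry short or no conserved reading frames, are loaded on ribosomes and are degraded by nonsense-mediated decay (NMD). Many hosts start with a 5′ terminal oligopyrimidine (TOP) tract, the element through which growth signals control the translation of ribosomal protein mRNAs.

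The libraries held 16.8 M to 19.0 M estimated counts at 96 h and 17.6 M to 20.9 M at 0 h (M for mega). All 14 markers of neuroblastoma and sympathetic neuroblasts were detected, with a summed level of 2371 to 2472 CPM at 96 h and 2608 to 2678 CPM at 0 h (CPM, counts scaled to a library of 1 M). The sum hides opposite moves: by the test described below, 10 of the 14 were lower and 3 higher at 96 h (median log2 fold change -0.42). Among all tested genes 28.8% were lower and 28.7% higher. Fibroblast markers summed to 10.5 to 12.2 CPM at 96 h and 4.28 to 4.76 CPM at 0 h (1 of 5 at 0 in all libraries), glial markers to 4.68 to 7.83 CPM and 5.94 to 8.78 CPM (1 of 5 at 0), and endothelial markers to 1.27 to 1.69 CPM and 1.03 to 1.25 CPM (0 of 2 at 0). Immune and epithelial markers summed to at most 0.390 CPM in any library, with 1 of 3 at 0 in each list. The part of other cell types in the results was not tested, and in bulk RNA fewer cells of a type and less RNA per cell cannot be told apart.

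The windows around the annotated starts show which hosts have a pyrimidine run near the start, where a TOP element would lie. They run from 10 bases before to 30 bases from the start on, 5′ to 3′ (RefSeq, GRCm38.p6), and capitals mark a run of at least 5 C or T that begins with C between 5 bases before and 10 after the start. Gas5 has another annotated start whose window holds no such run.
Gas5: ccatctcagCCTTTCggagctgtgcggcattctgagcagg
Snhg8: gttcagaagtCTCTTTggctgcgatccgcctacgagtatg
Snhg12: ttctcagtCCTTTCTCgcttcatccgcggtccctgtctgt
Snhg3: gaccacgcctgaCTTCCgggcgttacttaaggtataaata
Snhg5: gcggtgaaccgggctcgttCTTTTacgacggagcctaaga
Snhg10: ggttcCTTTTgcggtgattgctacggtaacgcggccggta
The Snhg10 run ends before the annotated start, and the runs of Snhg3 and Snhg5 begin 2 and 9 bases after it. The annotated RNAs of Snhg3, Snhg5 and Snhg10 therefore do not begin with their runs, whereas that of Snhg8 does. The runs of Gas5 and Snhg12 span the annotated start. The windows of Snhg1, Snhg11 and Snhg20 held no such run, and no window was given for Snhg6. The run was present in 6 of the 10 windows of the host genes (60%), in 24.3% of all 32851 windows and in 50.7% of the 73 windows of ribosomal protein genes. The search read the transcribed strand only and describes letters, not a functional element.

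Of the 10 host genes, 6 rose at 96 h (Gas5, Snhg8, Snhg12, Snhg20, Snhg1 and Snhg6), 1 fell (Snhg3), 2 did not pass the test (Snhg5 and Snhg10) and 1 had too few counts to be tested (Snhg11). A gene was called with the edgeR quasi-likelihood test at an adjusted p under 0.05 over all 13705 tested genes. By the same rule 28.7% of all tested genes were higher at 96 h and 28.8% were lower (57.4% in either direction), whereas of 862 tested genes that RefSeq types as lncRNA 27.5% were higher and 6.73% lower (34.2% in either). The median log2 fold change was 0.49 over the 9 tested hosts, 0.48 over the lncRNA genes and 0.03 over all tested genes. Summed over the 10 genes, the level was 86.1, 87.9 and 90.1 CPM at 96 h and 58.2, 68.0 and 62.4 CPM at 0 h (replicates 1, 2 and 3, as in all lists of 3 values). The summed level was 1.40-fold higher at 96 h, and the libraries of the 2 states did not overlap.

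**Figure D1:**
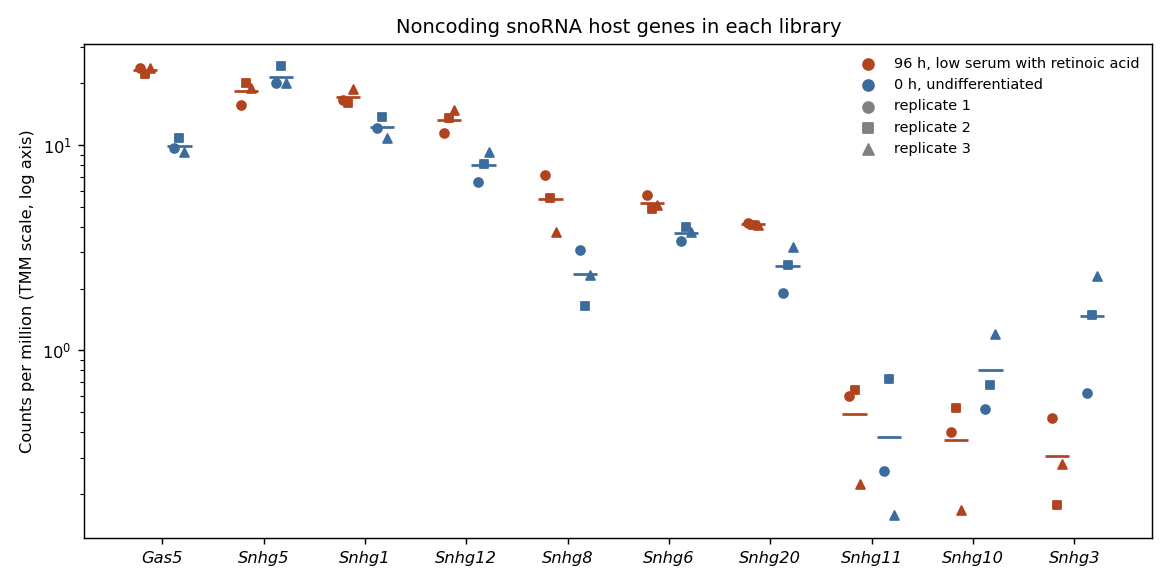
Level of each host gene in each library, in CPM on a log axis, with genes ordered by their mean at 96 h, 96 h (red) left of 0 h (blue), symbols for replicates and lines for means. All 3 libraries at 96 h lie above all 3 at 0 h for Gas5, Snhg1, Snhg12, Snhg8, Snhg6 and Snhg20, and below them for Snhg3.

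Gas5, named for its rise in growth-arrested cells, had the smallest adjusted p of the 10. It stood at 23.8, 22.3 and 23.9 CPM at 96 h and at 9.63, 10.8 and 9.28 CPM at 0 h, from 358, 381 and 429 counts at 96 h and 187, 254 and 178 counts at 0 h. All libraries at 96 h lay above all at 0 h, with means of 23.3 ± 0.93 CPM at 96 h and 9.91 ± 0.81 CPM at 0 h (± gives the SD of 3 libraries throughout for CPM values). The rise was 2.34-fold, a log2 fold change of 1.23 ± 0.10 (SE, 95% interval 1.02 to 1.44, adjusted p = 1.2e-07). Gas5 took 26.5% ± 1.2 of the summed counts of the 10 genes at 96 h and 15.8% ± 0.85 at 0 h.

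Snhg8, which holds the H/ACA snoRNA Snora24, stood at 7.16, 5.50 and 3.79 CPM at 96 h and 3.08, 1.64 and 2.33 CPM at 0 h. The spread within each state was wide, with means of 5.48 ± 1.7 CPM at 96 h and 2.35 ± 0.72 CPM at 0 h, but the states did not overlap. The log2 fold change was 1.22 ± 0.29 (2.32-fold, adjusted p = 0.00272). Its estimated counts were fractional, and so were those of Snora24 inside it, while the sums of both were whole to within 0.002 in all 6 libraries, at 472, 571 and 466 counts at 96 h and 111, 134 and 118 counts at 0 h. The split of these reads between host and snoRNA was therefore an estimate. In the GENCODE M21 annotation 1 of the 3 Snhg8 transcripts holds the Snora24 sequence.

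Snhg12, the host of Snora16a, Snora44, Snora61 and Snord99, stood at 11.5, 13.6 and 14.9 CPM at 96 h and 6.61, 8.13 and 9.25 CPM at 0 h. The lowest library at 96 h was above the highest at 0 h, and the log2 fold change was 0.74 ± 0.15 (1.66-fold, adjusted p = 9.05e-04). Snhg1, which holds a cluster of C/D snoRNAs and is known for a spliced RNA less stable than its snoRNAs, stood at 16.5, 16.1 and 18.7 CPM at 96 h and 12.1, 13.7 and 10.8 CPM at 0 h. The states did not overlap here either, and the log2 fold change was 0.49 ± 0.11 (1.40-fold, adjusted p = 0.00232).

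Snhg6, the host of Snord87, stood at 5.73, 4.91 and 5.12 CPM at 96 h and 3.41, 4.0 and 3.76 CPM at 0 h, with a log2 fold change of 0.49 ± 0.19 (1.41-fold, adjusted p = 0.0438). Snhg20, a scaRNA host, stood at 4.20, 4.09 and 4.06 CPM at 96 h and 1.91, 2.60 and 3.19 CPM at 0 h, with a log2 fold change of 0.68 ± 0.24 (1.60-fold, adjusted p = 0.0284). Neither gene's states overlapped. Without any 1 of the 6 libraries the call of Snhg6 was lost (adjusted p = 0.0593 to 0.139), and that of Snhg20 was lost without any library other than 0 h replicate 3 (adjusted p = 0.0657 to 0.107). With libraries scaled by their totals alone, a scaling that shifted the all-gene median by -0.25, the calls of Snhg1 (0.23, adjusted p = 0.140), Snhg6 (0.24, adjusted p = 0.320) and Snhg20 (0.43, adjusted p = 0.140) were lost. Their directions and those of the other tested hosts were the same under every scaling tried.

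All libraries at 96 h lay above all at 0 h in 32.4% of tested genes and below them in 31.7%. The 6 hosts called higher and Snhg3 have to be read against those shares.

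Snhg3, the host of Snora73a and Snora73b, was the host that fell. It had 7, 3 and 5 counts at 96 h and 12, 35 and 44 counts at 0 h, or 0.466, 0.175 and 0.278 CPM at 96 h and 0.620, 1.49 and 2.30 CPM at 0 h. Every library at 96 h was below every library at 0 h, but the values at 0 h spread widely. The log2 fold change was -2.26 ± 0.58 (95% interval -3.51 to -1.01, adjusted p = 0.00436). A filter that asks for at least 1 CPM removed this gene from the test. Snhg3 lies within the span of Rcc1, a guanine nucleotide exchange factor of Ran, on the same strand in GENCODE M21, so reads of the shared stretch could be assigned to either. Rcc1 itself was lower at 96 h, at 28.4 ± 1.1 CPM against 47.6 ± 3.0 CPM at 0 h (log2 fold change -0.74 ± 0.07, adjusted p = 7.89e-07).

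Snhg5, the host of Snord50a and Snord50b, stood at 15.7, 20.1 and 19.0 CPM at 96 h and 20, 24.2 and 20.2 CPM at 0 h. The states overlapped and the test was not passed, with a log2 fold change of -0.23 ± 0.11 (95% interval -0.46 to 0.00, adjusted p = 0.0855). Its share of the summed counts of the 10 genes was 20.8% ± 2.3 at 96 h and 34.1% ± 1.7 at 0 h, with every library at 96 h below every library at 0 h. With libraries scaled by their totals alone, the fall of Snhg5 passed the test (-0.48, adjusted p = 0.00332), and so it did without the filter on low counts (-0.27, adjusted p = 0.0309).

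Snhg10, the host of the scaRNA Scarna13, had 6, 9 and 3 counts at 96 h and 10, 16 and 23 counts at 0 h. The CPM values overlapped and the log2 fold change of -1.13 ± 0.56 did not pass (95% interval -2.34 to 0.09, adjusted p = 0.105). It passed with libraries scaled by their totals alone (-1.37, adjusted p = 0.0458). Snhg11, known for its expression in neurons, had 9, 11 and 4 counts at 96 h and 5, 17 and 3 counts at 0 h. It was removed by the filter on low counts, and without that filter its log2 fold change was 0.28 ± 0.72 (adjusted p = 0.800). A difference in Snhg11 was not detectable at this depth.

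Levels of different hosts were compared in CPM per kilobase of mean annotated transcript length (GENCODE M21). At 96 h the level was 31.5 ± 1.3 for Gas5, 22.2 ± 2.8 for Snhg5, 21.1 ± 1.7 for Snhg1, 14 for Snhg12, 9.39 for Snhg8, 9.05 ± 0.73 for Snhg6, 5.01 for Snhg20, 0.80 for Snhg10, 0.69 ± 0.33 for Snhg3 and 0.21 for Snhg11. At 96 h the libraries of Snhg5 and Snhg1, of Snhg12 and Snhg8, of Snhg8 and Snhg6, and of Snhg10 and Snhg3 overlapped, and those of the other neighbours in the order did not. At 0 h the level was 26.1 ± 2.9 for Snhg5, 15.1 ± 1.8 for Snhg1, 13.4 ± 1.1 for Gas5, 8.40 for Snhg12, 6.41 ± 0.51 for Snhg6, 4.02 for Snhg8, 3.32 ± 1.9 for Snhg3, 3.12 for Snhg20, 1.76 for Snhg10 and 0.16 for Snhg11. There the libraries of Snhg1 and Gas5, and of Snhg8, Snhg3, Snhg20 and Snhg10 as neighbours, overlapped. By mean transcript length Gas5 was thus first in the order at 96 h and the third at 0 h, where Snhg5 was first. By the longest annotated transcript, Snhg5 was first at 96 h too (15, against 9.13 for Gas5), and at 0 h Gas5 (3.88) came after Snhg5 (17.6), Snhg12 (5.20), Snhg6 (4.56) and Snhg1 (4.47). The 25 annotated Gas5 transcripts have a mean length of 741 nt, and the longest has 2556 nt.

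The tested genes outside this group whose levels over the 6 libraries were most like the summed hosts were Gm54326, Golgb1, Rbm4, Cotl1 and Bet1, among 8120 genes with a mean of at least 10 CPM. The measure was the root mean square difference of log2 CPM centred on each gene's own mean, and it was 0.0343, 0.0421, 0.0463, 0.0472 and 0.0479 in that order.

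GENCODE M21 places 29 snoRNAs and scaRNAs of the table inside 9 of the hosts, and 4 of the C/D type are shown for their part in the results below. Capitals mark the box C motif (TGATGA) near the 5′ end and the box D motif (CTGA) near the 3′ end, as found by a search for these letters, and Snord22 has the box D match only (GENCODE M21, GRCm38, 5′ to 3′ on the transcript strand, on chromosome 1 for Gm22357, 19 for Snord22 and 9 for the Snord50 genes).
Gm22357: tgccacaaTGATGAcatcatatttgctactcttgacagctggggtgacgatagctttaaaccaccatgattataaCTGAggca
Snord22: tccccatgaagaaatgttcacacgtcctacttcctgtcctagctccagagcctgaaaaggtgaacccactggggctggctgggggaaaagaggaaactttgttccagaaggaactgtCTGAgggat
Snord50a: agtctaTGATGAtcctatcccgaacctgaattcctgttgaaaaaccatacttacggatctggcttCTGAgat
Snord50b: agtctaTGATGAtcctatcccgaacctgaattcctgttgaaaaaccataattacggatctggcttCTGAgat
The H/ACA snoRNA of Snhg8 on chromosome 3 and the pair in Snhg3 on chromosome 4 follow, with the ACA box near the 3′ end in capitals.
Snora24: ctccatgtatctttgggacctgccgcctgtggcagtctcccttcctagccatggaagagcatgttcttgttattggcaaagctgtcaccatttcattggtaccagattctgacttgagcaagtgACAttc
Snora73a: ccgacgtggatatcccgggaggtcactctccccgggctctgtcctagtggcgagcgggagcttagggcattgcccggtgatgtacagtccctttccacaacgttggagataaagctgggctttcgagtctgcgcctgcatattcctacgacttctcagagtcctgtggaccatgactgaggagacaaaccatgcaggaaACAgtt
Snora73b: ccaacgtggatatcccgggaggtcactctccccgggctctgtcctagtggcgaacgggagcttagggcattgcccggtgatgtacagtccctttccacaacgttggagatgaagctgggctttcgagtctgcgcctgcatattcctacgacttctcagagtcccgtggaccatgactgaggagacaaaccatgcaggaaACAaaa
Snora73a and Snora73b differ at 7 of 205 bases (96.6% identity). Snord50a and Snord50b differ at 1 of 72 bases, by C50A, counted from 1 at the 5′ end with the Snord50a base first.

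Of the 29 small RNAs, 24 were tested. Leaving out Snord50b, whose call cannot be read for a reason given below, all of the other 23 were higher at 96 h. This share has to be read against 95.2% of the 186 tested snoRNA and scaRNA genes of the whole table that were higher by the same rule, so it is not particular to these hosts. The log2 fold changes of the 23 ran from 1.05 to 4.02 with a median of 2.28. The medians were 2.15 for 16 C/D snoRNAs and 2.62 for 6 H/ACA snoRNAs, and the value of the scaRNA was 1.05. The summed level of all 29, Snord50b included, was 888, 1310 and 974 CPM at 96 h and 259, 298 and 334 CPM at 0 h. This sum was 3.56-fold higher at 96 h with no overlap. As a share of all counts, all snoRNA and scaRNA genes took 0.365% ± 0.062 at 96 h and 0.113% ± 0.015 at 0 h, and Gm26917, a predicted gene, 30.5% ± 1.6 at 96 h against 20.2% ± 2.2 at 0 h. The part of this difference in library makeup was not tested. The estimated counts do not tell a finished snoRNA from an unspliced host transcript that still holds it.

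**Figure D2:**
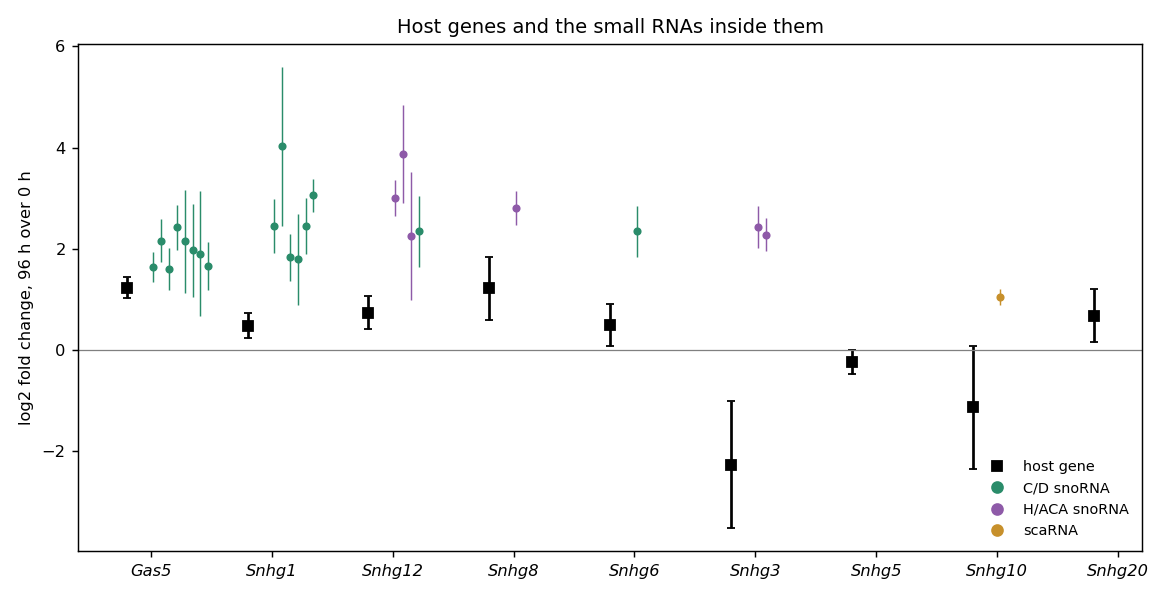
Log2 fold change of each tested host gene (black squares) and of each tested small RNA inside it (circles, coloured by class), 96 h over 0 h, with 95% intervals. Snord50b is left out, and the small RNAs lie between 1.05 and 4.02 while the hosts lie between -2.26 and 1.23.

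Within Gas5 all 8 small RNAs in the table were higher, with a median log2 fold change of 1.94. Gm22357, the C/D snoRNA shown above, stood at 445, 731 and 515 CPM at 96 h and 160, 182 and 198 CPM at 0 h, a log2 fold change of 1.64 ± 0.14 (3.12-fold, adjusted p = 2.32e-07). It alone took 52.9% ± 2.8 of the summed counts of the hosted small RNAs at 96 h and 60.8% ± 1.2 at 0 h. The levels within this single host were far apart: per kilobase at 96 h, Gm22357 averaged 6789 CPM and Snord78 15 CPM. These values divide by lengths of 83 and 66 nt. How well RNAs this short were recovered and counted was not tested, so the values describe estimated counts only. Snord47 (3.80 ± 1.6 CPM at 96 h against 0.966 ± 0.53 CPM at 0 h), Snord80 (16.1 ± 4.3 CPM against 5.06 ± 1.4 CPM) and Snord78 (0.992 ± 0.11 CPM against 0.265 ± 0.23 CPM) were called higher as well. The other 4, all C/D snoRNAs, were Gm25789 (2.43 ± 0.21 on the log2 scale), Gm22489 (2.16 ± 0.20), Gm26224 (2.14 ± 0.47) and Gm23212 (1.60 ± 0.19).

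Within Snhg1, 6 of the 8 small RNAs were tested and their median log2 fold change was 2.45. Snord22 stood at 75.4, 76.9 and 63.2 CPM at 96 h and 5.63, 9.79 and 10.3 CPM at 0 h. It was 8.33-fold higher, a log2 fold change of 3.06 ± 0.15 (adjusted p = 1.64e-09), against 1.40-fold for its host. The log2 fold change was 2.45 ± 0.25 for Gm22744, 2.45 ± 0.26 for Gm25894, 1.83 ± 0.22 for Gm24453 and 1.79 ± 0.42 for Gm25855. Gm23246 had the largest value and few counts, 16, 12 and 16 at 96 h and 0, 2 and 1 at 0 h (4.02 ± 0.73, adjusted p = 3.24e-04). Gm22680 and Gm24452 were removed by the filter on low counts.

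Within Snhg12, Snora16a stood at 32.6, 44.4 and 36.1 CPM at 96 h and 3.62, 4.30 and 6.22 CPM at 0 h, 8.04-fold higher. Snora44 (3.67 ± 0.68 CPM at 96 h against 0.251 ± 0.19 CPM at 0 h) and Snora61 (1.02 ± 0.34 CPM against 0.203 ± 0.13 CPM) are H/ACA snoRNAs of the same host and were called higher. Snord99, its C/D snoRNA, was 5.08-fold higher.

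In Snhg3 the small RNAs moved opposite to the host. Snora73a stood at 33.2, 42.3 and 29.0 CPM at 96 h and 4.18, 6.69 and 8.52 CPM at 0 h (5.38-fold, log2 fold change 2.43 ± 0.19, adjusted p = 1.25e-07). Snora73b stood at 30.1, 32.4 and 26.9 CPM at 96 h and 4.24, 7.58 and 6.37 CPM at 0 h (4.86-fold, log2 fold change 2.28 ± 0.15). Both snoRNAs lie inside Rcc1 as well as Snhg3, and both hosts fell. The estimated counts of the snoRNAs were fractional in 5 of the 6 libraries, so some of their reads were divided between genes that share sequence. Summed over both snoRNAs, the counts of the 0 h libraries were whole, at 783, whereas those at 96 h came to 3230.6. Replicate 2 was the only library at 96 h whose sum was not whole. The split between Snora73a and Snora73b was therefore an estimate, and their separate fold changes rest on it.

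Snora24, in Snhg8, stood at 24.3, 27.9 and 22.2 CPM at 96 h and 2.65, 4.07 and 3.83 CPM at 0 h (7.00-fold, log2 fold change 2.81 ± 0.15). Snord87, in Snhg6, stood at 10.1, 17.6 and 11.3 CPM at 96 h and 2.01, 2.81 and 2.82 CPM at 0 h (5.08-fold). Scarna13, in Snhg10, was the smallest rise of the 23, at 83.0, 84.4 and 81.0 CPM at 96 h and 42.3, 35.6 and 42.6 CPM at 0 h (2.06-fold, log2 fold change 1.05 ± 0.07). Its host Snhg10 had 18 counts at 96 h and 49 at 0 h over all libraries, against 4145 and 2470 for Scarna13. The pair of small RNAs annotated in Snhg11, Gm25129 and Gm25187, had 0 counts in all libraries.

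The Snord50 genes of Snhg5 show how the estimate can decide a fold change. Snord50b was given 266, 248 and 366 counts at 96 h and 0, 0 and 0 counts at 0 h. Gm26135, a gene outside Snhg5 with a sequence identical to Snord50b, was given 0, 340 and 0 counts at 96 h and 76.0, 140 and 86.9 counts at 0 h. The Snord50b sequence also lies within an annotated transcript of 9330159M07Rik. Snord50a was at 0 in all libraries. Reads of identical copies cannot be told apart, so no fold change of Snord50b alone can be read. Summed over Snord50a, Snord50b and the copies Gm26135, Gm24463 and Gm23017, the family had 267, 592 and 370 counts at 96 h and 78, 143 and 94 counts at 0 h. That sum was 24.3 ± 9.0 CPM at 96 h and 5.01 ± 1.0 CPM at 0 h, 4.86-fold higher with no overlap.

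**Figure D3:**
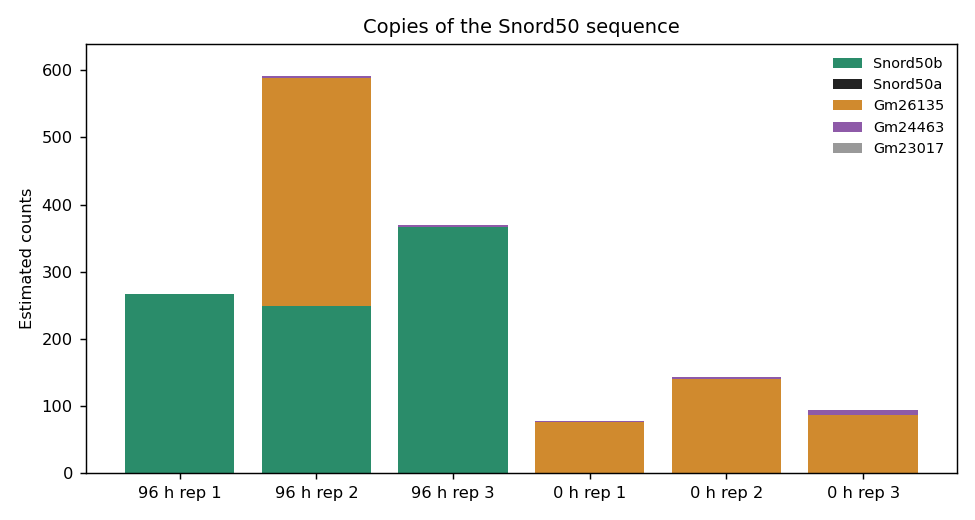
Estimated counts given to each copy of the Snord50 sequence in each library, stacked, with the 3 libraries at 96 h left of the 3 at 0 h. Snord50b holds most of the reads in replicates 1 and 3 at 96 h, shares them with Gm26135 in replicate 2 at 96 h, and is at 0 in all libraries at 0 h, while the stacks are taller at 96 h.

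Host and small RNA were then compared within each library, as log2 of the summed counts of its small RNAs over the counts of the host (0.5 added to each), so that scaling between libraries plays no part. The small RNAs counted for each host were those listed for it by their standard names, with the Snord50 copies summed, and in the 8 hosts with at least 10 counts of host and of small RNAs in each state the ratio was higher at 96 h in all 8, by a median of 2.16. In 7 of the 8 every library at 96 h was above every library at 0 h, and for each of the 7 the exact two-sided permutation test gave p = 0.1, the smallest that 3 libraries against 3 allow. Of all 186 tested snoRNA and scaRNA genes, 95.2% were called higher at 96 h. In 94.1% of them every library at 96 h lay above every library at 0 h. The ratio was not computed for other hosts, so a higher ratio is not shown to be particular to these.

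For Snhg1 the log2 ratio was 2.19, 2.25 and 1.75 at 96 h and -1.10, -0.48 and -0.07 at 0 h, so Snord22 had more counts than its host in every library at 96 h and fewer in every library at 0 h. Snord22 was the only small RNA counted there. Over all 8 that GENCODE M21 places in Snhg1, the ratio was 2.76, 3.09 and 2.53 at 96 h. At 0 h it was 0.21, 0.49 and 1.17, above 0 in every library. For Snhg12 the log2 ratio was 1.91, 2.22 and 1.68 at 96 h and -0.34, -0.15 and -0.18 at 0 h. For Snhg3 the means were 7.67 at 96 h and 3.21 at 0 h, a difference of 4.46 that rests on 15 host counts at 96 h and 91 at 0 h in all. The remaining differences were 2.47 for Snhg5 (0.36 at 96 h and -2.11 at 0 h), 2.15 for Snhg10 (7.84 and 5.69), 1.82 for Snhg6 (1.26 and -0.56) and 1.61 for Snhg8 (2.21 and 0.60). The Snhg5 value includes copies outside Snhg5, and at 0 h all counts of the family were given to such copies. It therefore cannot be tied to Snhg5 as the host.

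Gas5 was the exception. Its log2 ratio over Snord47, Snord78 and Snord80 was -0.62, 0.30 and -0.28 at 96 h and -1.29, -0.60 and -0.25 at 0 h, a difference of 0.51 with overlapping libraries (exact two-sided permutation p = 0.5). Over all 8 small RNAs that GENCODE M21 places in Gas5, the ratio was 4.84 ± 0.43 at 96 h and 4.41 ± 0.22 at 0 h, with p = 0.2 by the same exact test. Whether the difference between Gas5 and the other hosts exceeds the spread was not tested.

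**Figure D4:**
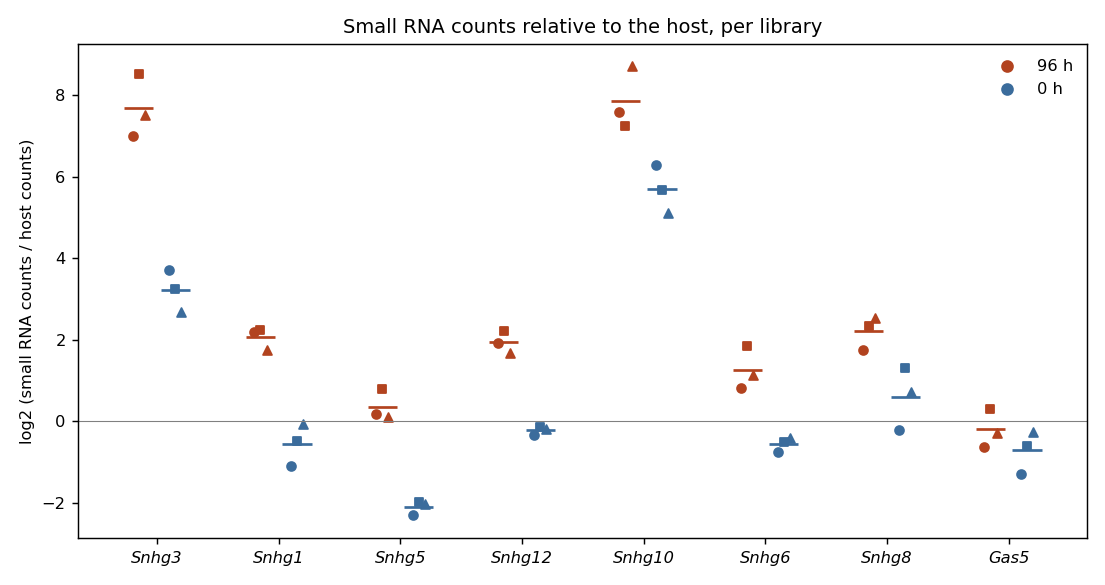
Log2 of small RNA counts over host counts in each library, by host, with 96 h (red) left of 0 h (blue), symbols for replicates and lines for means. The hosts are ordered by the difference, from 4.46 for Snhg3 to 0.51 for Gas5, the host whose states overlap.

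Annotated host transcripts can contain the small RNAs: 20 of the 25 Gas5 transcripts and 14 of the 18 Snhg1 transcripts are typed as retained introns in GENCODE M21, and 4 of the 25 Gas5 transcripts hold Gm22357. With each host and the small RNAs inside it counted as 1 feature, all 9 tested features passed as higher at 96 h, against 28.7% of genes in the main test. The log2 fold changes were 2.37 for Snhg8, 2.21 for Snhg3, 2.12 for Snhg1, 2.12 for Snhg12, 1.67 for Gas5, 1.54 for Snhg6, 1.02 for Snhg10, 0.74 for Snhg5 and 0.68 for Snhg20. Small RNAs, which rose on their own, gave most counts of several features. At 96 h they had 34521 counts against 1168 of the host for Gas5, 3231 against 15 for Snhg3 and 4145 against 18 for Snhg10. A higher sum therefore does not show that the host itself rose. The Snhg5 value rests on the counts given to Snord50b: with the other copies added, host and family came to 503, 936 and 712 counts at 96 h and 466, 711 and 480 counts at 0 h, which overlapped. For Snhg20 no small RNA was in the count.

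Other noncoding hosts, listed by name, were mixed. GENCODE M21 places a snoRNA of the table inside 9 of the 14 listed, and Snhg4, Snhg7, Snhg16 and Ftx are not among the 9. Of 11 tested, 4 were higher and 1 was lower at 96 h, with a median log2 fold change of 0.09. These counts stand beside 28.7% higher and 28.8% lower among all tested genes, and 27.5% and 6.73% among lncRNA genes. Dancr, a noncoding RNA known for holding back differentiation of epidermal progenitors in human cells, stood at 24.1 ± 3.0 CPM at 96 h and 3.98 ± 0.53 CPM at 0 h (6.03-fold, log2 fold change 2.59 ± 0.14, adjusted p = 2.93e-09). Zfas1 had a log2 fold change of 0.53 ± 0.11 (adjusted p = 0.00112), and Snhg4 fell (-0.77 ± 0.31, adjusted p = 0.0469). With upper-quartile scaling 5 were higher and 0 lower, and with libraries scaled by their totals alone 1 was higher and 3 lower.

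The listed protein-coding hosts include many ribosomal protein and translation factor genes. GENCODE M21 places a snoRNA of the table inside 46 of the 50 listed. Of 50 listed and tested, 13 were higher and 24 lower at 96 h, with a median of -0.08, beside 28.7% higher and 28.8% lower among all tested genes. With upper-quartile scaling 17 were higher and 22 lower (median -0.0037), and with libraries scaled by their totals alone 3 were higher and 36 lower (median -0.34). A difference from the noncoding hosts was not tested. Rps20 (303 ± 11 CPM at 96 h against 180 ± 3.0 CPM at 0 h, log2 fold change 0.75 ± 0.04) and Rps12 (0.41 ± 0.04), both small-subunit ribosomal protein genes, rose. Nop58 (-1.10 ± 0.06), a core C/D protein, and Ipo7 (-0.73 ± 0.04), a nuclear import receptor, fell. Of all 193 tested protein-coding genes that hold a snoRNA in GENCODE M21, 40 were higher and 82 lower, with a median of -0.10, whereas 115 of the 120 tested snoRNAs inside them were higher, with a median of 2.34. For the 23 small RNAs of the noncoding hosts the median was 2.28.

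The genes of the snoRNA particles and of their assembly fell or did not pass. The counts below stand beside 28.8% lower and 28.7% higher among all tested genes. All 4 C/D core proteins were lower at 96 h: Nop58 at 81.8 ± 3.4 CPM against 175 ± 11 CPM at 0 h, Snu13 (-0.87 ± 0.05), the methyltransferase Fbl (-0.70 ± 0.06) and Nop56 (-0.41 ± 0.05). Of the 4 H/ACA core proteins 3 were lower, among them the pseudouridine synthase Dkc1 (-0.76 ± 0.09) and Nhp2 (-0.69 ± 0.06), and Nop10 did not pass (-0.09 ± 0.11, adjusted p = 0.518). Of 14 assembly and trafficking factors 8 were lower, among them Nolc1, a nucleolar and Cajal body chaperone (-0.68 ± 0.07), and Ruvbl1, an ATPase of the assembly machinery (-0.40 ± 0.05). In these 3 lists 0 genes were higher by edgeR, and 0 were higher with TMM scaling at an unadjusted p under 0.05, by the DESeq2 Wald test or by limma-voom.

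In the lists of RNA turnover genes and of TOP mRNA regulators, most calls were lower at 96 h. Among all tested genes 28.8% were lower and 28.7% higher. An effect of these genes on the spliced host RNA was not tested. Of 16 NMD factors 12 were lower at 96 h, among them Eif4a3, a core protein of the exon junction complex (61.1 ± 1.3 CPM at 96 h against 117 ± 3.0 CPM at 0 h, -0.94 ± 0.05), and the helicase Upf1 (65.2 ± 2.3 CPM against 116 ± 3.2 CPM, -0.84 ± 0.05). Of 18 exonuclease, decapping and exosome genes 10 were lower, among them the nuclear exosome nuclease Exosc10 (-0.74 ± 0.05) and the helicase Mtrex (-0.54 ± 0.05). In both lists 0 genes were higher by edgeR, by the DESeq2 Wald test or by limma-voom, and with TMM scaling 0 were higher at an unadjusted p under 0.05, whereas with upper-quartile scaling 1 NMD factor was. Of 11 regulators of TOP mRNAs, 2 were higher and 8 lower. Eif4ebp1, a translation repressor acting below mTOR, rose 3.83-fold to 164 ± 8.6 CPM at 96 h, against 42.8 ± 2.1 CPM at 0 h (1.94 ± 0.06), and Mtor rose slightly (0.23 ± 0.05). Larp4 (-0.78 ± 0.05) and Larp1, which binds the TOP motif (-0.56 ± 0.05), fell. Under DESeq2, upper-quartile and total-count scaling the medians of all 5 lists stayed below 0, as did that of the TOP regulators.

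**Figure D5:**
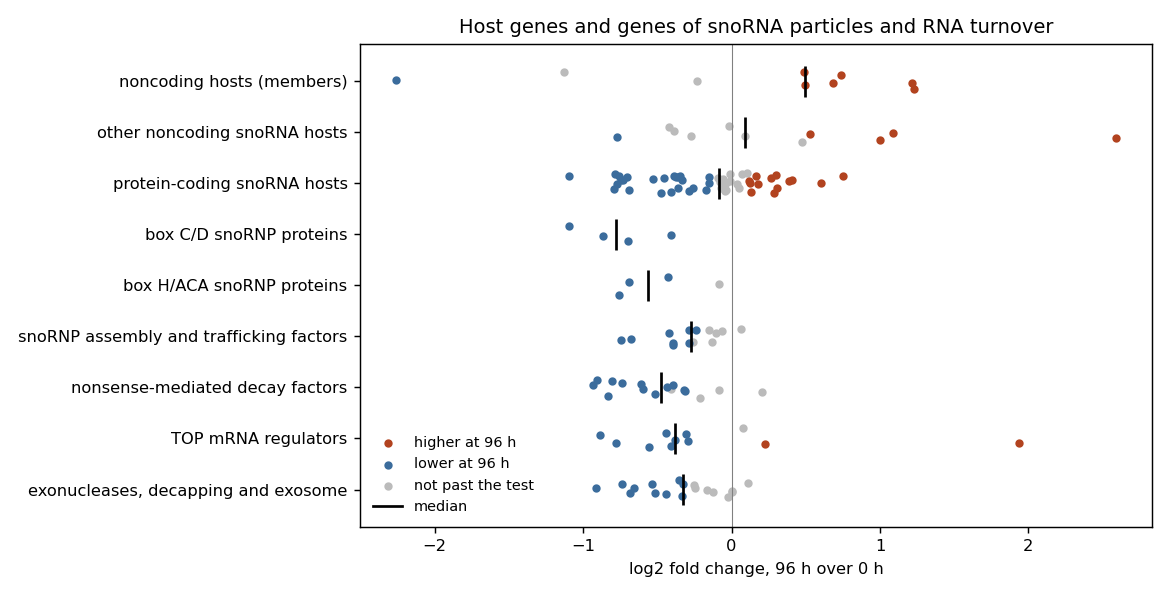
Log2 fold change, 96 h over 0 h, of every tested gene in the lists of hosts, snoRNA particle proteins and RNA turnover factors, with calls coloured (red higher at 96 h, blue lower, grey not past the test) and a black line at each list's median. The median is 0.49 for the noncoding hosts described here and -0.78 for the C/D core proteins.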

How the data were processed

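Per the labels' protocols, total RNA (RNeasy Plus Micro) was depleted of ribosomal RNA, and stranded libraries (Takara SMARTer, v2 Pico) were read from both ends on a G4 instrument of Singular Genomics. The mouse build mm39, Salmon 1.10.1, FastQC 0.12.1 and DESeq2 1.52.0 are named per the submitters' processing notes. No annotation, strand setting or way of summing to genes is stated there. The authors deposited estimated counts (expected counts) per gene symbol, not normalised. Such estimates divide reads between similar or overlapping genes.

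Counts were rounded and tested with edgeR 4.0.16 (R 4.3.3): filterByExpr left 13705 of 40413 genes, TMM set the scaling, and p-values of the quasi-likelihood test were adjusted by Benjamini-Hochberg over all tested genes (threshold 0.05). Standard errors are log2 fold changes over the root of F. CPM use TMM-scaled totals. Ratios, with 0.5 added, were compared by exact two-sided permutation tests. All genes, lists and tests were chosen with earlier results of these data known. The text names all 10 hosts, tested small RNAs with at least 10 counts in a group, and from each list of other hosts or of factors the 2 higher and 2 lower genes with the smallest adjusted p. Nop56, Fbl, Nop10 and Rcc1 were named beyond this rule after their values were seen. Nop56, Nop58 and Dkc1 stand in 2 lists.

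Sequences and host assignments came from GENCODE M21 (GRCm38) and RefSeq (GRCm38.p6), matched by symbol. The build differs from that of the counts, so no coordinates are given. The labels state no pairing of equal replicate numbers, and the deviations of such libraries from their group means were nearly uncorrelated (-0.01, 0.01 and -0.00). Replicates differed beyond sampling noise (chi-square per degree of freedom 6.79 to 13.9). On simulated data (12893 genes, 96 h against 0 h) 82 of 100 true 2-fold changes and 47 of 100 true 1.41-fold changes were called, with 7 false among 136 calls. The changed genes were drawn from those at 1 CPM or more at 0 h, and they were a far smaller part of the genes than the 57.4% called here. These rates therefore do not describe hosts below 1 CPM at 0 h or a table with this many changes. Alternatives were DESeq2, upper-quartile and total-count scaling, 2 other filters, the DESeq2 1.42.0 Wald test, limma-voom (limma 3.58.1), a threshold of 0.01, removal of structural RNA and Gm26917, a replicate block and leaving out each library. The summing of Snord50 copies and of hosts with their small RNAs was chosen after seeing the data.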

Additional observations from a re-analysis of the deposited data

How the results depend on the processing

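The numbers of host genes called higher (6) and lower (1) depended most on the scaling. With libraries scaled by their totals alone, 3 hosts were higher and 3 lower, the summed level differed by 0.23 on the log2 scale in place of 0.49, and 2409 genes of the table were higher in place of 3927 (29.2% of all calls, against 49.9%); the cause was not tested. The number of hosts called lower was 2 without the filter on low counts and 0 with the stricter filter, which removed Snhg3 from the test. Leaving out each library in turn left 4 to 5 hosts called higher and 1 lower, a difference in the summed level of 0.43 to 0.54, and a median difference in the ratio of small RNA to host of 2.04 to 2.24. With the replicate number as a block, which the labels and the data do not establish as a pairing, 2 hosts were lower (Snhg5 gained the call, adjusted p = 0.0487) and the call of Snhg6 was lost (adjusted p = 0.0651). Snhg6 also missed the threshold by the DESeq2 Wald test (adjusted p = 0.0666) and without the filter (0.144), and Snhg20 without the filter (0.0591). At a threshold of 0.01 both lost their calls. No host gene changed direction in any setting in which it was called. With the pseudocount, the list of small RNAs or the summing of Snord50 copies changed, the median ratio kept its direction. Low counts limit Snhg3, Snhg10 and Snhg11 most.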
